A study of Mus musculus with 14 samples.

Results

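The genes described here were 10 antioxidant genes, most of them known targets of the transcription factor Nrf2, in the superior mesenteric artery (SMA) of mice with or without ischemia. They were Hmox1, Nqo1, Srxn1, Txnrd1, Gclc, Gclm, Slc7a11, Sod1, Sod2 and Cat. They were taken by their symbols from a table of 46095 gene symbols, and all 10 were found and passed the filter on low counts, which left 17693 genes for the test. The study sequenced total RNA of the SMA of 14 C57BL/6 mice of 8 weeks of age. The WT mice were Drp1 +/+, with 3 under normal conditions and 3 after ischemia. The Drp1 KO mice, labelled Drp1 flox/+ in the deposit and described as Drp1 +/- in the study, numbered 4 under normal conditions and 4 after ischemia. KO here follows the study, which describes the loss of 1 allele of Drp1 made by CRISPR, as homozygous loss is lethal in the embryo. It reported fewer reads of the targeted exon and less Drp1 protein in the KO mice. No Cre was named, and the labels alone cannot show whether an allele was lost in these mice. Ischemia was made by bleeding through a catheter in the femoral artery. The labels give 2 h of ischemia, while the study's text gives a longer period for the same mice. The comparison of interest was between normal and ischemic arteries in each genotype, as the study asked whether Drp1 acts on the removal of free radicals by glutathione.

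Nrf2, encoded by Nfe2l2, is held in the cytoplasm by Keap1 and degraded there. Under oxidative or electrophilic stress it escapes Keap1, enters the nucleus, pairs with a small Maf protein and binds the antioxidant response element in the promoters of its targets, from which the repressor Bach1 can be displaced. The targets include enzymes that degrade haem, reduce quinones and make glutathione. Superoxide dismutases and catalase work beside them and remove superoxide and hydrogen peroxide, the former in the cytosol (Sod1) and mitochondria (Sod2) and the latter mainly in peroxisomes (Cat).

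The core of the antioxidant response element, TGACNNNGC on either strand, was looked for in the window from 250 bases before to 50 bases after each gene start, taken from RefSeq on GRCm38.p6. Of the 10 genes, 8 had a window, and 4 of these 8 held the core. By comparison, 13.99% of 27025 genes with a window held it. The 4 matches are shown because they place this core beside the start of members of the group. Each is printed 5′ to 3′ on the minus strand of the genome, opposite to the gene, with the core in capitals and 10 bases on either side. In Srxn1, the core lay 29 to 37 bases after the start, in Gclm 134 to 126 bases before it, in Txnrd1 92 to 84 bases before it in 1 of 3 windows, and in Sod1 56 to 48 bases before it.
Srxn1 chr2:152105542-152105570: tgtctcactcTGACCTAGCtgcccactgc
Gclm chr3:122245413-122245441: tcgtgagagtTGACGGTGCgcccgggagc
Txnrd1 chr10:82859104-82859132: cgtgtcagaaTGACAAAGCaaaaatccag
Sod1 chr16:90220696-90220724: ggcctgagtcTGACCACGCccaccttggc
The windows of Nqo1, Slc7a11, Sod2 and Cat did not hold these letters. A match is a description of the sequence and not a measured binding site.

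Total counts per mouse ranged from 25612646 to 40255851, with a median of 33506452, so that 3 counts, taken as the smallest level the depth can show, stood for 0.0745 to 0.117 CPM, the counts of a gene scaled to the total of its library. CPM values here are also adjusted by TMM, edgeR's trimmed mean of M-values. Markers of smooth muscle (6 of 6) and endothelium (5 of 5) were detected in each group, while 6 brown adipocyte markers summed to between 181 and 6834 CPM. WT normal replicate 3 was sequenced on lane 1 and the other 13 mice on lane 8. Dnm1l, which encodes Drp1, had 63.8, 65.7 and 90.9 CPM in the WT and 54.8, 60.8, 57.9 and 62.2 CPM in the KO mice under normal conditions, and 81.0, 63.1 and 80.9 CPM in the WT and 72.6, 69.0, 76.0 and 60.0 CPM in the KO mice after ischemia. The 2 genotypes did not overlap under normal conditions, as was so for 4.5% of all tested genes, and overlapped after ischemia. The KO against WT difference of Dnm1l over both conditions had a false discovery rate (FDR) of 0.665 by edgeR.

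Per kilobase of annotated exon, the peroxide and superoxide enzymes led the group by their medians. The median over 14 mice was 132 CPM per kb for Cat and 60.3 for Sod1, followed by 20.2 for Sod2 and 16.1 for Srxn1. Nqo1 (10.3), Gclc (10.1), Txnrd1 (9.59) and Hmox1 (9.45) were close to each other, and their ranges over mice overlapped. Gclm followed with 4.02 CPM per kb, and Slc7a11 was last with 0.0165. These values use the union of all annotated exons, which lowers the level of genes with long and rarely used exons.

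The genes differed widely in how much they varied between mice of the same group. The SD of log2 CPM within groups was 1.08 for Sod2, 0.75 for Cat and 0.69 for Hmox1, above the median of 0.54 over all tested genes. It was 0.45 for Srxn1, 0.42 for Sod1, 0.37 for Gclm, 0.34 for Nqo1, 0.31 for Gclc and 0.29 for Txnrd1. For Slc7a11 it was 1.22, at 0 to 23 counts per mouse. Among the 45 pairs of the 10 genes, Pearson correlations of log2 CPM within groups were taken over 14 mice. They ran from -0.84 to 0.92, with a median of 0.19. The -0.84 was that of Nqo1 with Slc7a11, a gene with few counts. Among the pairs without Slc7a11, the lowest was -0.43, for Gclc with Sod1. The 10 genes thus did not move as 1 block. Part of them did vary together, as all pairs among Sod1, Sod2, Cat, Srxn1 and Txnrd1 lay between 0.66 (Txnrd1 with Sod1) and 0.92 (Sod1 with Cat). These genes were set apart after the values were seen. This is a description, since all genes of a mouse share 1 library.

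**Figure D1:**
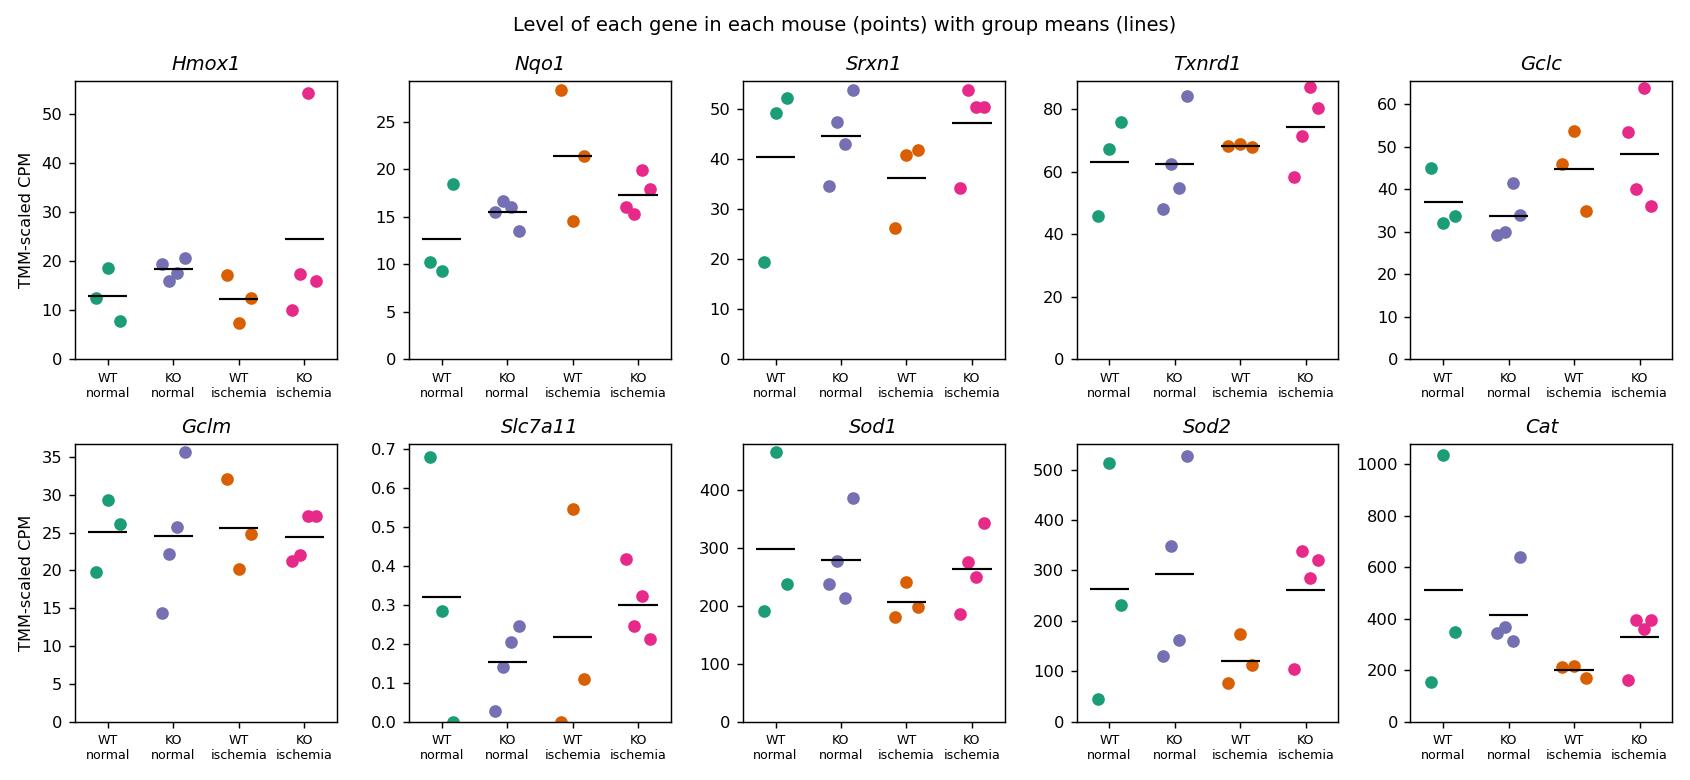
Level of each of the 10 genes in each mouse, in TMM-scaled CPM on a linear axis from 0, with 1 point per mouse and a line at the group mean for WT normal (n = 3), KO normal (n = 4), WT ischemia (n = 3) and KO ischemia (n = 4). For Hmox1, the 54.4 CPM of 1 KO mouse after ischemia stands above all other mice, and for Cat and Sod2 the widest spread is in the WT mice under normal conditions.

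Hmox1, on chromosome 8 (75093621 to 75100589, GRCm38), encodes heme oxygenase 1, the inducible enzyme that opens the haem ring. Its level was 12.4, 18.7 and 7.74 CPM in the WT and 19.4, 16.0, 17.5 and 20.6 CPM in the KO mice under normal conditions. After ischemia it was 17.1, 7.42 and 12.5 CPM in the WT and 10.01, 17.4, 54.4 and 15.9 CPM in the KO mice. All groups overlapped, and 1 KO mouse after ischemia, replicate 3, was the only 1 of 14 above 21 CPM. This mouse also had the highest sum of 5 macrophage markers in its group (137 CPM, against 65.9 to 101 CPM in the other 3 mice), but KO mice under normal conditions reached 283 CPM of these markers with Hmox1 at 20.6 CPM or less. It had the highest sum of 4 neutrophil markers of all 14 mice as well (14.1 CPM, against 1.25 to 2.70 CPM in the rest of its group), with 1 marker at 0. WT ischemia replicate 2 came next with 11.2 CPM of these markers and had Hmox1 at 7.42 CPM. The part of macrophages and neutrophils in the Hmox1 level was not tested.

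Nqo1, on chromosome 8 (107388225 to 107403206), encodes the quinone reductase that is often read as a marker of Nrf2 activity. It was measured at 10.2, 9.23 and 18.4 CPM in the WT and 15.5, 16.7, 16.0 and 13.5 CPM in the KO mice under normal conditions. After ischemia, the WT mice had 28.3, 14.5 and 21.4 CPM and the KO mice 16.0, 15.3, 19.9 and 17.9 CPM. Among the WT mice, 2 of 3 after ischemia were above all 3 under normal conditions, and the third fell within their range.

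Srxn1, on chromosome 2 (152105516 to 152111376), encodes sulfiredoxin, which repairs overoxidized peroxiredoxins. It had 19.4, 49.3 and 52.4 CPM in WT normal, 34.7, 47.4, 43.1 and 53.8 CPM in KO normal, 26.3, 40.9 and 41.8 CPM in WT ischemia and 34.2, 54.0, 50.5 and 50.4 CPM in KO ischemia mice. Each group held a mouse below 35 CPM, and all groups overlapped. Txnrd1, on chromosome 10 (82833951 to 82897712), encodes the cytosolic thioredoxin reductase and had 45.9, 67.2 and 75.8 CPM in WT normal, 48.2, 62.4, 54.9 and 84.3 CPM in KO normal, 68.1, 69.0 and 67.8 CPM in WT ischemia and 58.3, 71.3, 87.0 and 80.5 CPM in KO ischemia mice. It had the smallest spread within groups of the 10 genes.

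Gclc and Gclm encode the catalytic and the modifier subunit of glutamate-cysteine ligase, the rate-limiting enzyme of glutathione synthesis. Gclc, on chromosome 9 (77754535 to 77794485), had 45.0, 32.0 and 33.6 CPM in the WT and 29.3, 29.9, 41.5 and 33.8 CPM in the KO mice under normal conditions. After ischemia, it had 46.1, 53.8 and 34.8 CPM in the WT and 53.5, 40.0, 63.8 and 36.0 CPM in the KO mice. All 7 ischemic mice were above 34 CPM, as were 2 of the 7 normal mice, so the groups overlapped. Gclm, on chromosome 3 (122245557 to 122270732), had 19.7, 29.4 and 26.2 CPM in WT normal, 14.3, 22.2, 25.8 and 35.7 CPM in KO normal, 32.0, 20.2 and 24.7 CPM in WT ischemia and 21.3, 22.0, 27.2 and 27.2 CPM in KO ischemia mice. The 4 means of Gclm lay between 24.4 and 25.7 CPM, and 8.58% of its exon bases overlap other annotated genes, whose reads may be split in a way that is not known.

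Slc7a11, on chromosome 3 (49892526 to 50443614), encodes the cystine transporter that feeds cysteine into glutathione synthesis. Its counts were 23, 8 and 0 in WT normal, 1, 5, 9 and 8 in KO normal, 0, 16 and 4 in WT ischemia and 14, 8, 11 and 7 in KO ischemia mice. With 114 reads in all and 3 of 14 mice below 3 counts, no difference between groups was detectable for it at this depth.

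Sod1, on chromosome 16 (90220754 to 90226329), encodes the copper and zinc superoxide dismutase of the cytosol. It had 192, 466 and 238 CPM in WT normal, 238, 278, 214 and 386 CPM in KO normal, 181, 241 and 198 CPM in WT ischemia and 186, 276, 251 and 344 CPM in KO ischemia mice. Sod2, on chromosome 17 (13006846 to 13040063), encodes the manganese superoxide dismutase of mitochondria and had 44.8, 513 and 232 CPM in WT normal, 131, 349, 163 and 527 CPM in KO normal, 77.7, 173 and 113 CPM in WT ischemia and 105, 338, 285 and 320 CPM in KO ischemia mice. The highest Sod2 level was 11.8 times the lowest, the widest range of the 10 genes apart from Slc7a11, and both ends of the range of the WT mice, replicates 1 and 2, were under normal conditions. Cat, on chromosome 2 (103453849 to 103485160), encodes catalase, which breaks down hydrogen peroxide mainly in peroxisomes, and had 155, 1035 and 347 CPM in WT normal, 345, 367, 315 and 638 CPM in KO normal, 214, 218 and 168 CPM in WT ischemia and 164, 396, 361 and 396 CPM in KO ischemia mice. The same WT mouse, replicate 2 under normal conditions, had the highest Cat and Sod1 levels of all 14 and the second highest Sod2 level.

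The brown adipocyte markers Ucp1, Cidea, Dio2, Elovl3, Cox8b and Cpt1b also differed widely between mice of 1 group. Their summed level was 181, 6834 and 1658 CPM in WT normal, 1162, 4259, 1762 and 6281 CPM in KO normal, 279, 1497 and 731 CPM in WT ischemia and 1009, 4921, 3977 and 4441 CPM in KO ischemia mice. All 6 markers had counts in each mouse, except for 1 at 0 in KO normal replicate 3. Cpt1b had only 0 to 42 counts per mouse and Elovl3 as few as 1, yet each weighs as much as Ucp1 in the mean log2 CPM used below. The WT mice after ischemia were the lowest group, with a mean of 835 ± 616 CPM (SD, n = 3), against 2891 ± 3494 (n = 3) in WT normal, 3366 ± 2361 (n = 4) in KO normal and 3587 ± 1761 (n = 4) in KO ischemia mice. White adipocyte markers (5 of 5 detected) were also highest in WT normal replicate 2, at 9024 CPM, and lowest in WT normal replicate 1, at 410 CPM, with 1 marker at 0. The smooth muscle markers ran the other way in these 2 mice, with 7316 CPM in replicate 2 and 21602 CPM in replicate 1. Summed smooth muscle markers averaged 18142 (WT) and 16687 CPM (KO) in normal mice and 28875 and 24944 CPM in ischemic mice, with overlapping ranges. Erythroid markers (haemoglobin genes and Alas2) averaged 183 and 453 CPM in normal and 63.0 and 124 CPM in ischemic WT and KO mice. The part of these markers in the ischemia comparisons was not tested. In whole arteries, fewer cells of a type and less RNA per cell cannot be told apart.

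With the mean log2 CPM of the 6 markers as a term beside the 4 groups in edgeR's fit, which was added after the data were seen, 5 of the 10 genes had a slope on the markers that passed an FDR of 0.05. Sod2 rose by 0.67 on the log2 scale for each doubling of the markers (FDR 3.65e-06), Cat by 0.43 (FDR 0.000761), Srxn1 by 0.25 (FDR 0.00221), Sod1 by 0.25 (FDR 0.00102) and Txnrd1 by 0.14 (FDR 0.0337). The other 5 genes had slopes that did not pass the limit, with 0.07 for Hmox1, -0.06 for Nqo1, -0.06 for Gclc, 0.09 for Gclm and -0.0028 for Slc7a11. The count of 5 of 10 genes with a slope, all positive, stands beside 23.5% of all tested genes, 13.6% with a positive and 9.95% with a negative slope. The slopes of Sod2, Cat, Sod1 and Srxn1 passed in all 14 fits that left out 1 mouse, and that of Txnrd1 in 9 of 14. It was lost without WT normal replicate 1 (0.13, FDR 0.181), KO normal replicates 1, 3 or 4 or KO ischemia replicate 1 (FDR 0.0553 to 0.0867).

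**Figure D2:**
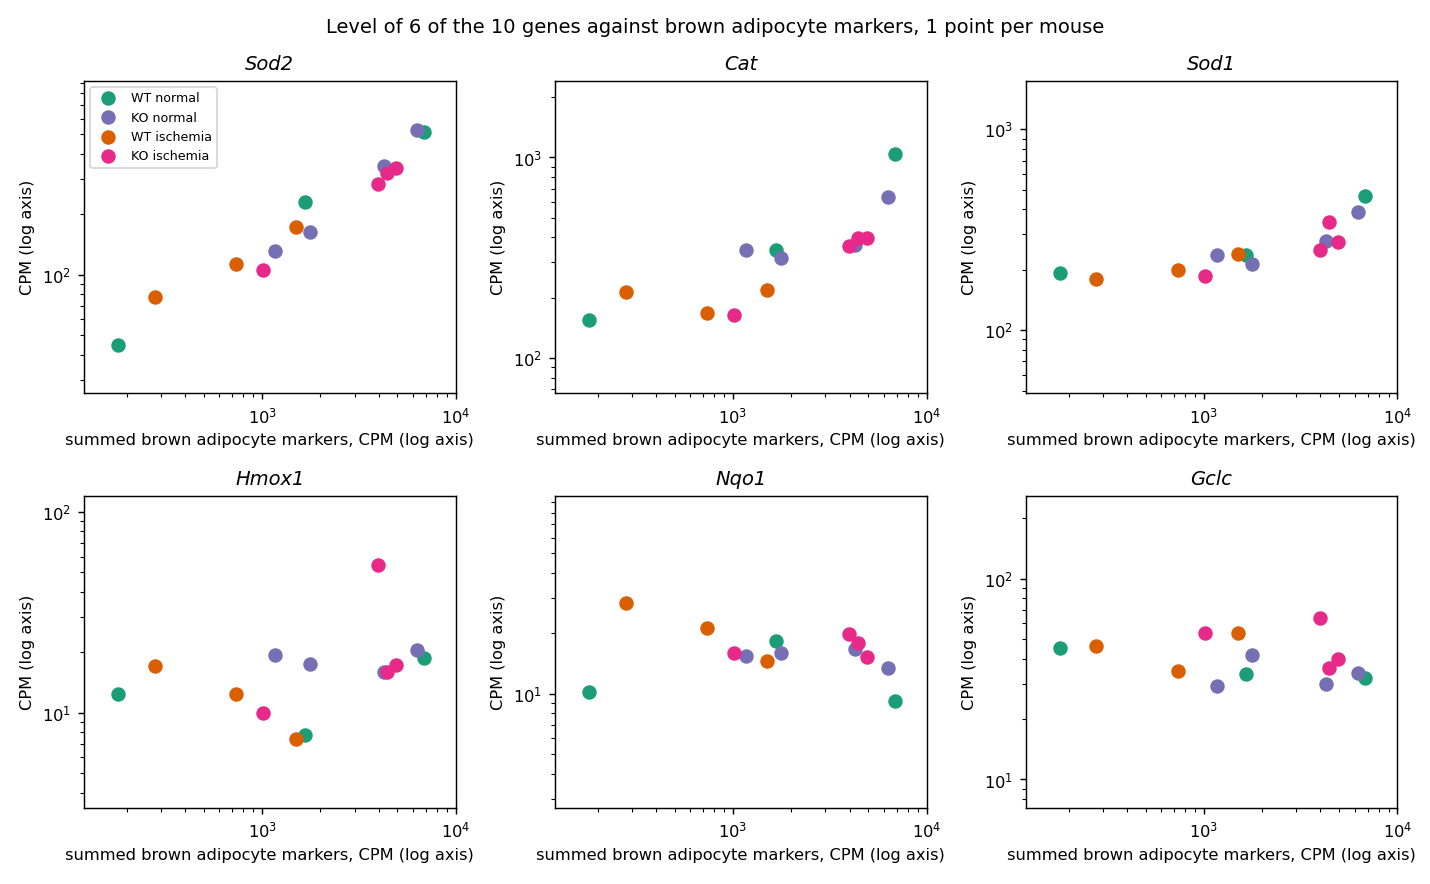
TMM-scaled CPM of 6 of the 10 genes (vertical, log axis) against the summed CPM of 6 brown adipocyte markers (horizontal, log axis), with 1 point per mouse coloured by group. In the top row, Sod2 rises with the markers in all 4 groups (slope 0.67 per doubling), Cat (0.43) and Sod1 (0.25) rise over all mice although Cat is flat in the WT mice after ischemia (168 to 218 CPM), while Hmox1, Nqo1 and Gclc in the bottom row show no slope that passed the test.

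The first comparison asked whether ischemia moved these genes. No member of the group passed an FDR of 0.05 with a fold change over 1.5 in the WT mice, in the KO mice or over both genotypes by edgeR or by DESeq2 (0 of 10 in each). Over both genotypes, Nqo1 and Gclc had higher and Cat lower levels after ischemia with an unadjusted p below 0.05. These were 3 of 10 genes, 2 higher and 1 lower. The same limit was met by 18.1% of all tested genes, 8.35% higher and 9.72% lower, and 0.927% were called by edgeR and 4.95% by DESeq2, so the share of the 10 genes is to be read against these. The values of normal and ischemic mice overlapped for all 10 genes, whereas they did not overlap for 0.848% of all genes.

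For Nqo1, the log2 fold change after ischemia over both genotypes was 0.46 (SE 0.19, 95% interval 0.06 to 0.86, FDR 0.224), with 0.76 (SE 0.28, FDR 0.513) in the WT and 0.16 (SE 0.24, FDR 0.850) in the KO mice. For Gclc, it was 0.40 (SE 0.16, 95% interval 0.05 to 0.75, FDR 0.226), with 0.28 (SE 0.25) in the WT and 0.52 (SE 0.21, FDR 0.311) in the KO mice. The partner subunit Gclm stood at 0.01 (SE 0.19). For Cat, it was -0.85 (SE 0.36, 95% interval -1.62 to -0.08, FDR 0.241), with -1.36 (SE 0.55, FDR 0.513) in the WT and -0.34 (SE 0.47, FDR 0.827) in the KO mice. The intervals are for each gene alone and are not adjusted for the number of genes.

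The value of Cat in the WT mice rests on 1 mouse. Without WT normal replicate 2, the mouse with 6834 CPM of brown adipocyte markers, it was -0.35 in the WT mice and -0.33 over both genotypes. Sod2 in the WT mice went from -1.12 (SE 0.72, FDR 0.577) to -0.20 without this mouse, and from -0.64 (SE 0.47) to -0.17 over both genotypes. With the replicate number as a block in a fit of the WT mice alone, which was added after the data were seen, Sod2 was at -0.65 and Cat at -0.98 in the WT mice, and 1 of all tested genes was called in place of 2. With the markers as a covariate, the value of Cat over both genotypes was -0.52 (SE 0.19, FDR 0.114) and that of Sod2 -0.15 (SE 0.13, FDR 0.494). The SE of Sod2 was thus 3.78 times larger without the markers in the fit, and 0 of 10 genes passed the limit there as well.

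Of the remaining genes over both genotypes, Hmox1 had a log2 fold change of 0.17 (SE 0.35), Txnrd1 of 0.18 (SE 0.16), Srxn1 of -0.04 (SE 0.21), Sod1 of -0.31 (SE 0.22) and Slc7a11 of 0.18 (SE 0.92). Hmox1 was at -0.07 (SE 0.52) in the WT and at 0.41 (SE 0.45) in the KO mice, and the latter turned to -0.35 without KO ischemia replicate 3, the mouse with 54.4 CPM. Without that mouse, the value over both genotypes was -0.21. The median over the 10 genes was 0.09, beside -0.05 over all tested genes and -0.13 over 80 other antioxidant genes.

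Within each genotype, the counts were as low. In the WT mice, Nqo1 (higher) and Cat (lower) met an unadjusted p under 0.05, 2 of 10 genes, beside 9.57% of all genes (4.1% higher and 5.47% lower). There, edgeR called 0.0113% and DESeq2 0.621% of all the genes each tested. In the KO mice, Gclc (higher) met this limit, 1 of 10 genes, beside 13.2% of all genes (5.75% higher and 7.47% lower). There, edgeR called 0.294% and DESeq2 3.58% of all the genes each tested. Normal and ischemic mice overlapped for all 10 genes in both genotypes, whereas they did not for 11% of all genes in the WT and 11.1% in the KO mice.

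**Figure D3:**
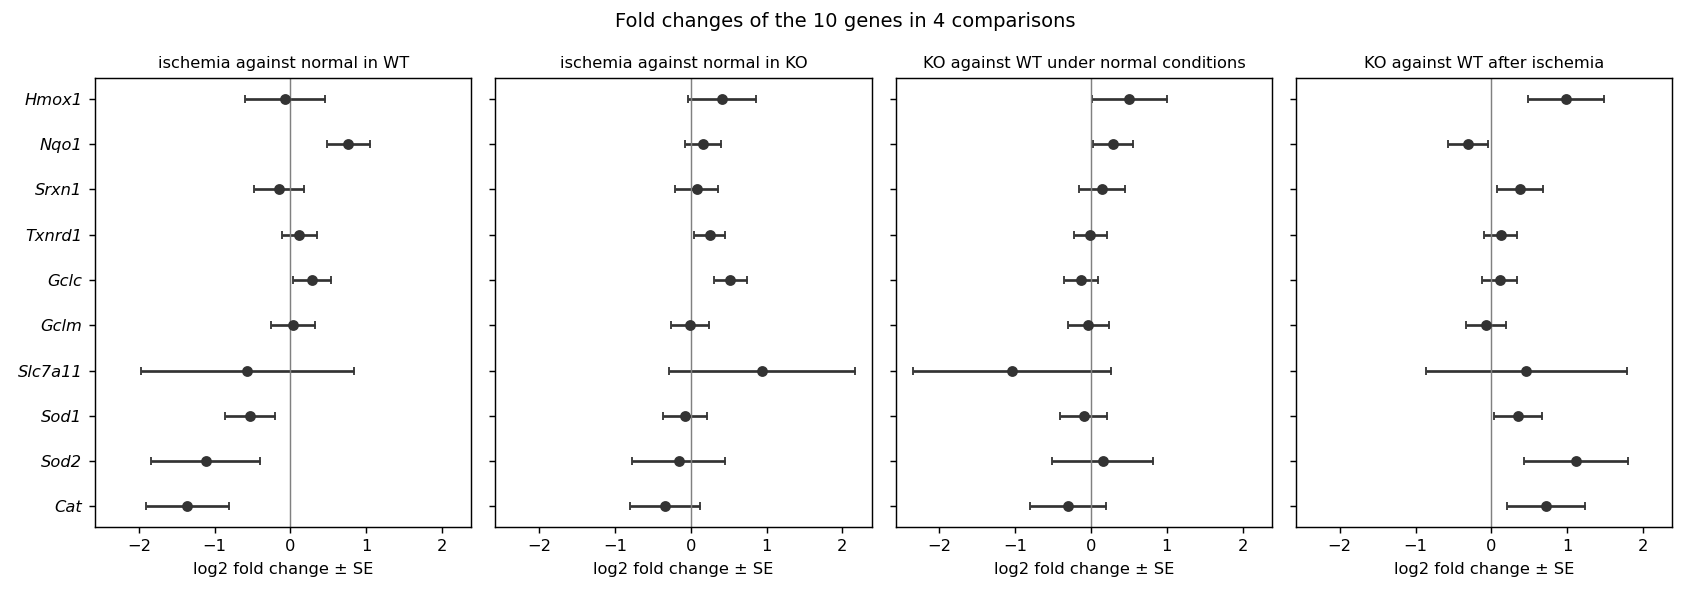
Log2 fold changes of the 10 genes (points) with their SE (bars) in 4 comparisons of edgeR's fit, with 3 or 4 mice per group. Nqo1 (0.76) and Cat (-1.36) for ischemia in the WT mice and Gclc (0.52) in the KO mice had an unadjusted p under 0.05 by edgeR. Other points also lie more than 1 SE from 0, such as Sod2 (1.11) and Hmox1 (0.98) in KO against WT mice after ischemia. None passed an FDR of 0.05.

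The second comparison asked whether these genes differed between the Drp1 KO and WT mice. None of the 10 was called in KO against WT mice under normal conditions, after ischemia or over both conditions by edgeR or DESeq2, and 0 of 10 met an unadjusted p under 0.05. Among all genes, edgeR called 0% in each of these comparisons. The unadjusted limit was met by 5.25% of genes under normal conditions, 6.48% after ischemia and 7.77% over both. In the same order, DESeq2 called 0.285%, 0.177% and 0.528% of all the genes it tested. WT and KO mice overlapped for all 10 genes in each comparison, whereas they did not for 4.5% of all genes under normal conditions, 10.7% after ischemia and 0.13% over both conditions.

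The largest of the 10 differences after ischemia was in Sod2, with a log2 fold change of 1.11 (SE 0.69, 95% interval -0.37 to 2.59, FDR 0.721) in KO against WT mice. Hmox1 followed with 0.98 (SE 0.50, 95% interval -0.09 to 2.06, FDR 0.715), Cat with 0.72 (SE 0.51), Slc7a11 with 0.46 (SE 1.32), Srxn1 with 0.38 (SE 0.31) and Sod1 with 0.35 (SE 0.31), while Nqo1 stood at -0.31 (SE 0.26). The brown adipocyte markers ranged from 1009 to 4921 CPM in these KO mice and from 279 to 1497 CPM in the WT mice. With these as a covariate, Sod2 was at -0.42 (SE 0.21), Cat at -0.35 (SE 0.31) and Txnrd1 at -0.20 (SE 0.19, from 0.12). Sod1 was at -0.19 (SE 0.19) and Srxn1 at -0.17 (SE 0.20) in that fit. The direction of these 5 turned, but with FDRs of 0.840 to 0.958 by edgeR the fit gives no clear direction for them. It uses 1 slope for all 4 groups, while the markers of these WT and KO mice overlap only from 1009 to 1497 CPM. Hmox1 was at 0.22 without KO ischemia replicate 3.

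Under normal conditions, Hmox1 was at 0.50 (SE 0.49) and Nqo1 at 0.29 (SE 0.26) in KO against WT mice, Sod2 at 0.15 (SE 0.67) and Cat at -0.30 (SE 0.50). Without WT normal replicate 2, Cat turned to 0.73 and Sod2 went to 1.08. The median over the 10 genes was -0.02 under normal conditions and 0.37 after ischemia, beside -0.02 and -0.03 over all tested genes. The 0.37 is from the fit without the brown adipocyte markers. With these as a covariate, Sod2, Cat, Txnrd1, Sod1 and Srxn1 turned from higher to lower after ischemia, while Hmox1, Gclc and Slc7a11 stayed higher.

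Whether ischemia acted differently in the 2 genotypes was tested by the interaction of genotype and ischemia. It was called for 0 of 10 genes and for 0% of all genes by edgeR, and for 0 of 10 and 0.0581% by DESeq2, and the unadjusted limit was met by 0 of 10 genes and 4.32% of all genes. The lowest FDR among the 10 genes was 0.946 for the interaction and 0.646 for KO against WT over both conditions. Leaving out WT normal replicate 3, the mouse on lane 1, gave a fit within lane 8 alone in which 0 of 10 genes were called in any of the 7 comparisons.

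The regulators of the pathway were measured in the same fit. Nfe2l2 had 90.7, 113 and 62.2 CPM in WT normal, 94.9, 113, 102 and 117 CPM in KO normal, 64.9, 136 and 62.7 CPM in WT ischemia and 132, 127, 142 and 96.9 CPM in KO ischemia mice. Its level after ischemia over both genotypes differed by 0.10 on the log2 scale (SE 0.19, FDR 0.805), that of Keap1 by -0.27 (SE 0.16, FDR 0.387) and that of Bach1 by -0.02 (SE 0.15, FDR 0.966). Keap1 ranged from 39.0 to 88.7 CPM and Bach1 from 19.4 to 38.2 CPM over 14 mice, and normal and ischemic mice of each genotype overlapped for all 3 genes. Keap1 did not overlap between genotypes after ischemia, with 39.0 to 56.9 CPM in the WT and 62.4 to 72.3 CPM in the KO mice (log2 fold change 0.38, SE 0.23, FDR 0.718 by edgeR), as was so for 10.7% of all genes. The activity of Nrf2 is set mainly by the stability of its protein, which these data do not measure.

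Of the regulators, the small Maf protein gene Maff was called. It had 46.2, 10.1 and 22.8 CPM in WT normal, 17.7, 12.4, 14.6 and 23.2 CPM in KO normal, 68.6, 137 and 95.3 CPM in WT ischemia and 67.8, 129, 100 and 123 CPM in KO ischemia mice. All 7 ischemic mice were above all 7 normal mice, while 0.848% of all tested genes showed no overlap in either direction. Maff rose by 2.28 on the log2 scale after ischemia over both genotypes (SE 0.31, FDR 0.00525) and by 2.63 in the KO mice (SE 0.41, FDR 0.0215), and stood at 1.93 in the WT mice (SE 0.46, FDR 0.400). The call over both genotypes held in all 14 fits without 1 mouse. That in the KO mice held in 9 of 14 and was lost without KO normal replicates 1, 2 or 3 or KO ischemia replicates 2 or 4 (FDR 0.0609 to 0.103). The interaction of Maff was not called (FDR 0.946).

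Mafk, another small Maf gene, had 155, 43.3 and 121 CPM in WT normal, 61.6, 39.8, 57.0 and 45.8 CPM in KO normal, 195, 122 and 200 CPM in WT ischemia and 111, 127, 94.6 and 130 CPM in KO ischemia mice. Its log2 fold change after ischemia was 0.94 (SE 0.24, FDR 0.0915), and in KO against WT mice over both conditions -0.82 (SE 0.24, FDR 0.533). By edgeR, neither passed the limit with all mice. The former was called by DESeq2 (0.93, FDR 0.0106) and with the brown adipocyte markers as a covariate (0.95, FDR 0.0103). By edgeR, it also passed without WT normal replicate 1 (1.13, FDR 0.0337), and the latter without WT normal replicate 2 (-0.99, FDR 0.0171).

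The other 84 antioxidant genes were grouped by function, and 80 of them were tested. After ischemia over both genotypes, Maff was the only 1 called by edgeR, while 8 were higher and 10 lower at an unadjusted p under 0.05. These 18 of 80 genes stand beside the 18.1% of all tested genes given for the same limit. DESeq2 called 3 of the 80, Maff, Mafk and Slc40a1, which encodes the iron exporter ferroportin (-1.89, FDR 0.0127, against -1.88 and FDR 0.126 by edgeR). In the KO mice, DESeq2 called Maff, Mafk (1.18, FDR 0.0188) and Ephx1, the microsomal epoxide hydrolase (-0.69, FDR 0.0140). Slc40a1 and Ephx1 are named for these calls after their values were seen. The counts by function that follow are those of edgeR without the brown adipocyte markers in the fit. Of 8 genes of glutathione synthesis and recycling, 0 were called, and 3 were higher and 1 lower at the unadjusted limit. Of 20 glutathione peroxidases and transferases, 0 were called, with 0 higher and 2 lower. Of 14 genes of the thioredoxin and peroxiredoxin system, 0 were called, with 1 higher, and of 6 genes that supply NADPH, 0 were called, with 1 lower. Of 6 genes of haem and iron 2 were lower, of 15 other Nrf2 targets 1 was higher and 3 lower, and of the superoxide genes Sod3 and Ccs 1 was lower, all without a call by edgeR. Aox1, an aldehyde oxidase with the smallest p among those lower, had a log2 fold change of -0.53 (SE 0.15, FDR 0.114). It passed the limit without WT ischemia replicate 2 (-0.68, FDR 0.0476).

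Between genotypes, 0 of 80 were called over both conditions by edgeR or DESeq2, and 2 were higher and 2 lower at an unadjusted p under 0.05, which 7.77% of all tested genes met. Beside Mafk, the smallest p belonged to Osgin1, an oxidative stress induced growth inhibitor, with 0.65 (SE 0.23, FDR 0.588), and to Sesn2, a stress-inducible sestrin, with 0.85 (SE 0.33, FDR 0.614). Osgin1 had 2.24, 2.38 and 2.68 CPM in WT normal, 5.92, 6.46, 7.27 and 5.37 CPM in KO normal, 6.35, 3.47 and 3.48 CPM in WT ischemia and 5.20, 5.65, 2.87 and 3.37 CPM in KO ischemia mice. WT and KO mice did not overlap under normal conditions, as was so for 4.5% of all tested genes, and they overlapped after ischemia. Under normal conditions, DESeq2 called Osgin1 (FDR 0.0155), as it did 0.285% of all genes, and edgeR did not (FDR 0.866). This gene is named for the DESeq2 call after its values were seen.

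The slope on the brown adipocyte markers was positive in 33 and negative in 7 of the 80 listed genes at an FDR under 0.05, beside 13.6% and 9.95% of all tested genes. All 6 genes that supply NADPH had a positive slope, from 0.38 for G6pdx and 0.40 for Idh1 to 0.68 for Pgd and 0.73 for Tkt. Of 20 glutathione peroxidases and transferases 10 were positive and 2 negative, of 14 thioredoxin and peroxiredoxin genes 7 were positive and 1 negative, and of 9 regulators 0 were positive and Mafk was negative (-0.24). The peroxiredoxins Prdx3 (0.50) and Prdx5 (0.42), found in mitochondria, and the lipid peroxide reductase Gpx4 (0.45) lay with Cat and Sod2, and the extracellular superoxide dismutase Sod3 went the other way (-0.21). These genes were named after their slopes were seen, and what the markers stand for beyond their own level was not tested.

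**Figure D4:**
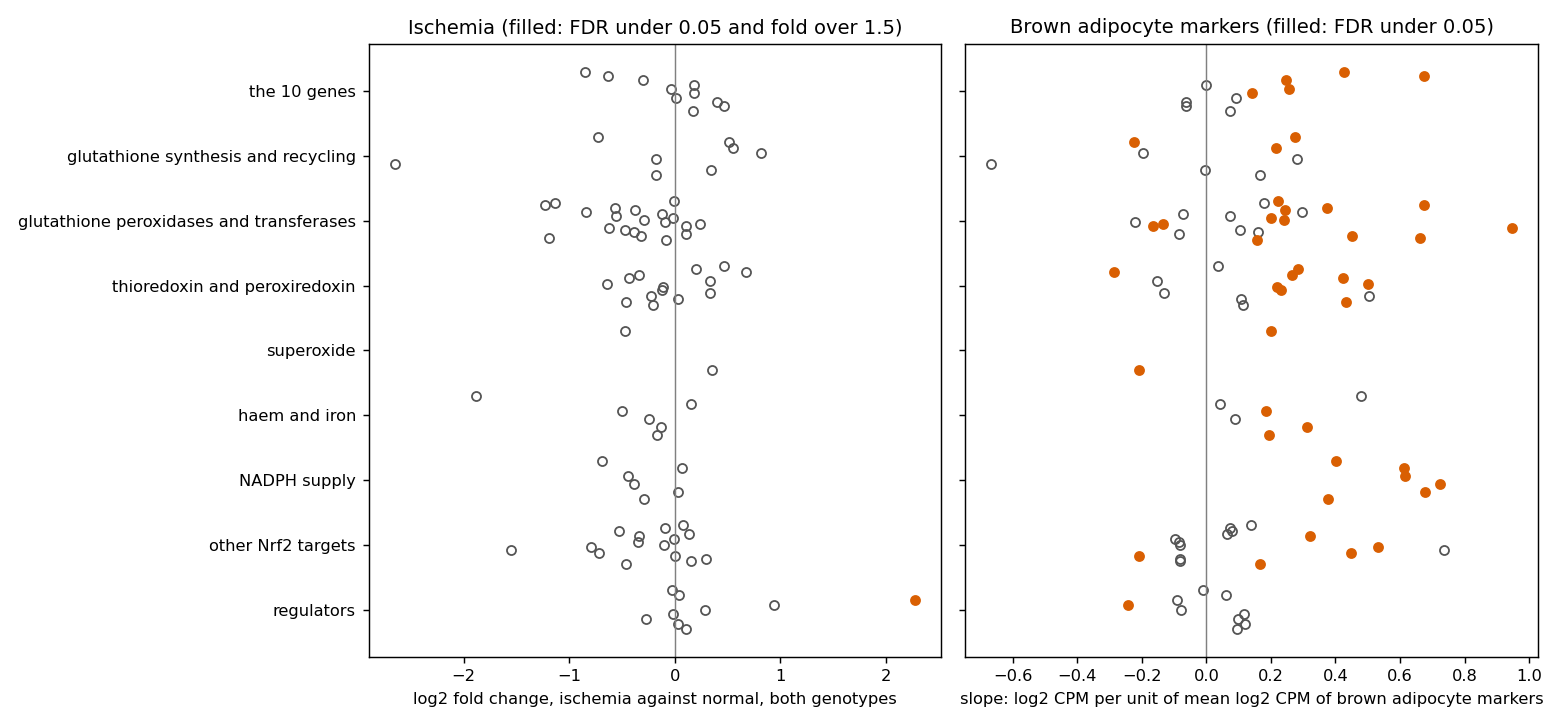
Each point is 1 gene, by functional class, with the log2 fold change of ischemia against normal over both genotypes on the left and the slope of log2 CPM per unit of mean log2 CPM of 6 brown adipocyte markers on the right, both from edgeR's fit over 14 mice. Filled points passed an FDR of 0.05, on the left also a fold change over 1.5, which on the left is Maff alone (2.28) and on the right 5 of the 10 genes and 40 of the 80 others.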

How the data were processed

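RNA-seq of the SMA was made from Trizol total RNA of 14 mice. The authors deposited a table of whole-number read counts per gene symbol and mouse, not normalized, with mice not pooled. The submitters' processing notes name HISAT2 2.0.4 and mm10. The counting program, annotation and use of strand are not given in the sources used here, so reads of overlapping genes cannot be assigned to strand. Mice were grouped by their labels, and 0 columns were left unused.

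Tests used edgeR 4.0.16 in R 4.3.3 (quasi-likelihood F-test, TMM, filterByExpr, 4 groups together), which calls limma 3.58.1, and DESeq2 1.42.0 was an alternative. A gene was called at a Benjamini-Hochberg FDR under 0.05 and a fold change over 1.5, the study's own limits. Log2 CPM used a prior count of 2. With a biological coefficient of variation of 0.522, mice differed by more than the depth (total counts of 25612646 to 40255851) would give. The 7 comparisons were ischemia against normal and KO against WT, each within both groups and pooled, and the interaction. Alternatives were other scalings and filters, no fold limit, 2-group fits, a replicate block, each mouse left out and, added after seeing the data, brown adipocyte markers as a covariate and a replicate block in the WT mice alone. Same-numbered mice were checked for shared deviations from their group means. All 3 pairs of WT normal and WT ischemia mice correlated above 0.1 (0.12 to 0.19), a limit not met by all pairs in the other comparisons. Mice with different numbers were not compared in this way, so the values do not show that the mice were paired. The main fit treated all mice as unpaired, and the replicate block was an alternative. No label says what a number shares. The fit was tested on simulated counts.

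Genes named are the 10, Dnm1l, Nfe2l2, Keap1, Bach1, the listed antioxidant genes called (up to 5 a comparison) or with the 3 smallest p in a pooled comparison, and for Hmox1, Gclc and Cat the 3 genes most alike over 14 mice. Members and lists were chosen with earlier results of these data known. No 2 mice of a group were the same library, as the lowest chi-square per degree of freedom in 18 pairs was 59.1. Exon lengths came from GENCODE on GRCm38, and promoter windows from RefSeq, where 8 of 10 genes matched.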

Additional observations from a re-analysis of the deposited data

Results flagged for a closer look

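In groups of 4 mice, the gap between 1 mouse and the nearest of the others was set against the range of the group, for 19 genes in 38 groups, and 4 passed the critical value of Dixon's test. Chance alone gives such a gap in about 1 in 20 groups. Hmox1 reached 54.4 CPM in KO ischemia replicate 3, with 17.4 CPM in the nearest and 10.01 CPM in the lowest mouse of the group. Cat was at 164 CPM in KO ischemia replicate 1, with 361 CPM in the nearest and 396 CPM in the highest mouse, and this mouse also had the lowest brown adipocyte markers of its group (1009 CPM, against 3977 CPM or more). Cat reached 638 CPM in KO normal replicate 4, with 367 CPM in the nearest and 315 CPM in the lowest mouse, and this mouse had the highest brown adipocyte markers of its group (6281 CPM). Keap1 reached 72.3 CPM in KO ischemia replicate 4, with 62.6 CPM in the nearest and 62.4 CPM in the lowest mouse, a narrow group in which a small gap is enough.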

How the results depend on the processing

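Direction and call of the 10 genes were computed under 24 alternatives, and 0 of up to 70 values were called in any of them (lowest FDR 0.0778). Fits of only the 2 compared groups gave 37 of these values, the block in the WT mice alone 9 and the filter of 10 counts in every mouse 63. DESeq2, other size factors and no low-count filter reversed 0 of 70 values. Dropping the fold limit uses the same fit, so it bears on the calls alone and cannot reverse a value. Asking for 10 counts in every mouse reversed 4 of 63 values and fits of only the 2 compared groups 1 of 37, none larger than 0.0368. By DESeq2, the calls among all genes were 108 for ischemia in WT, 604 in KO and 888 over both genotypes, 51 for KO against WT under normal conditions, 29 after ischemia, 100 over both conditions and 11 for the interaction, against 2, 52, 164 and 0 for the rest by edgeR. Listed antioxidant genes called by DESeq2 were 1 (Maff, 1.92) for ischemia in WT, 3 in KO, 3 over both genotypes (with Mafk, 0.93) and 1 for KO against WT under normal conditions. The cause was not tested.

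Mice share replicate numbers but are different animals. Deviations of 19 same-numbered pairs correlated at -0.15 to 0.32, with 11 above 0.1. All pairs were above it for ischemia in WT, but not for ischemia in KO or between genotypes within a condition. Replicate 1 had the lowest sum of brown adipocyte markers in all 4 groups. In the WT mice alone, a replicate block gave 1 call among all genes and 0 of the 10. In the fit of all groups it gave 0 calls for ischemia in WT and 1 for KO against WT over both conditions, and reversed 5 of 70 values, none larger than 0.13.

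With the brown adipocyte markers as a covariate, all genes called were 5 for ischemia in WT, 372 in KO and 613 over both genotypes and 5 for KO against WT over both conditions. Listed genes called were 3 in KO (Maff, Mafk and Ephx1) and 4 over both genotypes. The latter were Maff, Mafk (0.95), Sesn1 (0.76, FDR 0.0270) of the thioredoxin and peroxiredoxin list and Slc3a2 (0.63, FDR 0.0299) of the glutathione synthesis list. Sesn1 and Slc3a2 are named for these calls after their values were seen. Of 70 values of the 10 genes, 20 reversed with the covariate (size without it up to 1.11). Among those named here, Hmox1 reversed for ischemia in WT (0.0332), and Srxn1 (0.0644) and Bach1 (0.0146) for ischemia over both genotypes. Sod2 reversed for KO against WT under normal conditions (-0.20). After ischemia, Sod1 (-0.19), Sod2 (-0.42), Cat (-0.35), Srxn1 (-0.17) and Txnrd1 (-0.20) reversed for KO against WT. Fits of only the compared groups called 0 genes for ischemia in WT and 267 in KO, with 2 listed genes. Slc7a11 has no value with 10 counts required in every mouse.

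Leaving out each of 14 mice in turn called 0 of the 10 genes. The calls among all genes ran from 0 to 3 for ischemia in WT, 5 (without KO normal replicate 3) to 174 (without WT normal replicate 2) in KO and 60 (without KO normal replicate 2) to 361 (without WT normal replicate 1) over both genotypes, 0 to 29 for KO against WT under normal conditions and 0 to 102 over both conditions, the last 2 highest without WT normal replicate 2. Listed genes called ran from 0 to 2 for ischemia in KO, 1 to 4 over both genotypes, and 0 to 1 for KO against WT under normal conditions and over both conditions. It reversed 83 of 980 values, in 34 of the 70 results, of a size up to 1.05 with all mice. Of those named here, the direction turned for Hmox1 (-0.38 to 0.27 for ischemia in WT, -0.35 to 0.67 in KO, -0.21 to 0.36 over both genotypes), Sod2 (-0.37 to 0.29 for ischemia in KO, -0.34 to 1.08 for KO against WT under normal conditions) and Cat (-0.73 to 0.73 in the same comparison). Over both genotypes it also turned for Gclm (-0.0798 to 0.13), Srxn1 (-0.19 to 0.0819), Slc7a11 (-0.76 to 0.77), Nfe2l2 (-0.12 to 0.21) and Bach1 (-0.0996 to 0.0564). Slopes on the markers ran from -0.0500 to 0.14 for Hmox1, -0.18 to 0.00245 for Nqo1 and -0.13 to 0.69 for Slc7a11, with 4 to 5 of the 10 genes and 1924 (without WT normal replicate 2) to 4568 of all genes past the limit.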

Other observations

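The genes most alike to 3 of the 10, by the Pearson correlation of log2 CPM after the group means were removed, over 14 mice, were as follows. For Cat, they were Ehhadh (0.987), Crat (0.985) and Pck1 (0.983). Ehhadh encodes a peroxisomal enzyme of fatty acid oxidation, Crat the carnitine acetyltransferase and Pck1 the cytosolic PEP carboxykinase. For Gclc, they were Iws1 (0.937), Rlim (0.910) and Atxn7 (0.893), which encode a transcription elongation factor, a ubiquitin ligase and a subunit of a histone acetyltransferase complex. For Hmox1, they were Rab10os (0.858), Lrrc15 (0.823) and Gm33457 (0.806), and 1 mouse with a far higher level of Hmox1 weighs on these values. They were picked as the highest of all tested genes, and all genes of a mouse share 1 library, so they are a description.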
